A study of Mus musculus with 2 samples.

Results

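Histone H3 trimethylated at lysine 4 (H3K4me3), a mark found mainly around the starts of active and poised genes, was examined at 10 Kruppel-like factor genes in neurons of the mouse small intestine. The genes were Klf2, Klf3, Klf4, Klf5, Klf6, Klf7, Klf9, Klf10, Klf12 and Klf13, out of 17 Kruppel-like genes and 21887 protein-coding genes in the RefSeq gene table used here. They were chosen by name from the family with the peaks of this library already known, so their number and size of peaks are a description and not a test. A gene's peaks were those with at least 1 bp over its mm10 gene model or within 1 kb on each side of it.

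The study made 1 immunoprecipitate with an H3K4me3 antibody and 1 input chromatin library, both from sorted NOS1+ enteric neurons. NOS1 is the neuronal nitric oxide synthase of the inhibitory motor neurons of the gut wall. No genotype, strain, age or treatment is given in the labels, and no conditions were compared. Only the peak list of the immunoprecipitate was used, so nothing below has a replicate or a test, and read depth is unknown.

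Kruppel-like factors are transcription factors with 3 zinc fingers at the C-terminal end, which bind GC-rich and CACCC motifs in promoters. Some members are switched on within minutes by growth factors, cytokines, blood flow or tissue injury, and are regularly seen in cells that have been dissociated. Others are studied in neurons for the growth of axons, which they promote or restrain. The genes were therefore set in groups by these roles. Klf2, Klf4, Klf6 and Klf10 were taken as stress-induced (4 genes), Klf7, Klf9 and Klf13 as neuron-growth genes (3 genes), and Klf3, Klf5 and Klf12 as neither (3 genes). The roles overlap: Klf4 restrains and Klf6 promotes axon growth, and Klf9 is induced by glucocorticoid and thyroid hormones.

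All 10 genes carried peaks, beside 67.0% of all protein-coding genes. They held 35 peaks in all. Of these, 9 were at least 2500 bp wide, 1 in each gene other than Klf5, while 11 were under 300 bp and 19 had a score under 30. The score is the number that the authors' peak list gives each peak. Its scale is not stated, and it ran from 2.0015 to 702.6 with a median of 35.7 over 29924 peaks. The widest peak of each gene lay at or near a start or an end of its model. It was not always the highest-scored one, since at Klf13 a narrower peak scored more. A peak of at least 2500 bp was present in 9 of the 10 genes, beside 8.38% of protein-coding genes. Klf2 (2624 bp) was nearest to this limit from above, and Klf5 (1536 bp) was the gene below it.

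**Figure D1:**
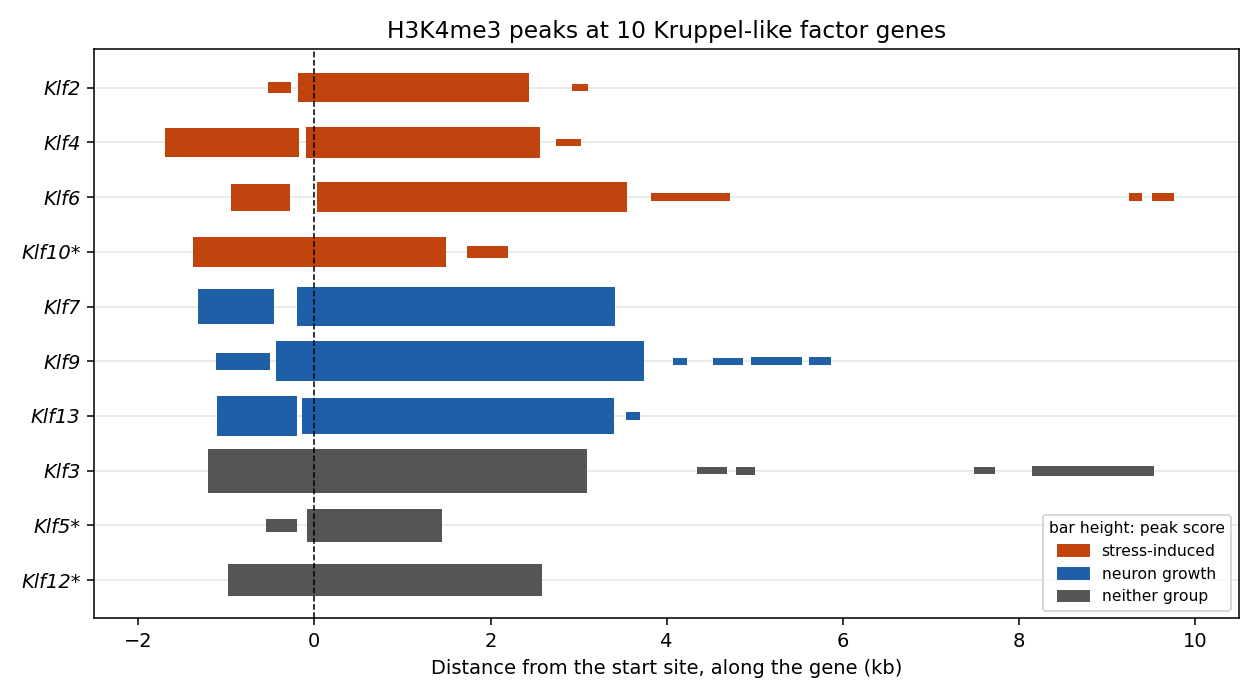
Peaks of H3K4me3 by distance in kb from the start site, 1 row a gene, with bar height rising with the peak score. For the genes marked with an asterisk (Klf5, Klf10, Klf12) distance runs from the end of the gene model that the widest peak covers; 1 narrow peak of Klf12 and 2 of Klf13 lie outside the plot. In 9 of the 10 rows 1 peak of at least 2500 bp stands out, and white gaps before the start are visible at Klf2, Klf4, Klf6, Klf7, Klf9 and Klf13. In the row of Klf5, which has no listed start, a gap of 111 bp lies just before the end of the model.

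The highest scores of the stress-induced genes lay close together and below those of most marked genes. Klf2, a factor of endothelial cells under flow and of resting T cells, had 3 peaks of 262, 2624 and 188 bp with scores of 26.8, 128.0 and 4.67. The middle one ran from 72318872 to 72321495 on chromosome 8 and covered nearly the whole gene model (72319062 to 72321654). Peaks took up 66.9% of the gene with its 1 kb margins, the largest share among the 10.

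Klf4, known from epithelial differentiation and the reprogramming of cells to pluripotency, had a peak of 2651 bp scoring 142.5 over its start (chromosome 4, 55529916 to 55532566). A second one of 1519 bp scoring 129.8 lay before the start, and another of 293 bp scoring 5.29 inside the gene. The upstream peak also held the lower end of Gm12506, a long noncoding RNA gene on the opposite strand that runs away from Klf4.

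Klf6, which is induced by injury, had 5 peaks. The widest spanned 3523 bp scoring 131.7 (chromosome 13, 5861513 to 5865035), and one of 672 bp before the start reached 117.8. The other 3, of 898, 153 and 252 bp, had scores between 6.28 and 9.64, the last 2 of them beyond the far end of the gene. Klf10, an early target of TGF-β signalling, had a peak of 2870 bp scoring 132.7 that covered the upper end of its model (chromosome 15, 38299220 to 38302089). A second peak of 469 bp scoring 28.2 lay inside the model, where the long noncoding RNA gene Gm35248 has its lower end. Widest peaks in this group thus ranged from 2624 to 3523 bp and highest scores from 128.0 to 142.5.

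The neuron-growth genes had wider peaks and higher scores. Klf7, a factor needed for the outgrowth of sensory and olfactory axons, had 2 peaks only. One of 3605 bp scoring 181.9 covered the listed start (chromosome 1, 64117979 to 64121583), and one of 861 bp scoring 159.9 covered the upper end of the longer gene model, at 64122345. The lower end of the long noncoding RNA gene Gm35880, on the opposite strand, lay in the wider peak.

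Klf9, a repressor that restrains axon growth, had the widest peak of the group, 4180 bp scoring 191.8 (chromosome 19, 23140784 to 23144963). It was preceded by a peak of 610 bp scoring 61.3. A run of 4 narrow peaks of 153, 336, 580 and 255 bp followed inside the gene, with scores from 3.99 to 9.12. These lay from 4073 to 5869 bp after the start.

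Klf13, a close relative of Klf9, had a peak of 3537 bp scoring 172.9 over its start (chromosome 7, 63935518 to 63939054). Its highest score, 188.2, belonged to a separate peak of 907 bp just before the start. The other 3 peaks, 156 to 589 bp wide with scores of 6.57 to 16.6, were inside the gene, 2 of them 13605 and 41613 bp or more from the start.

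**Figure D2:**
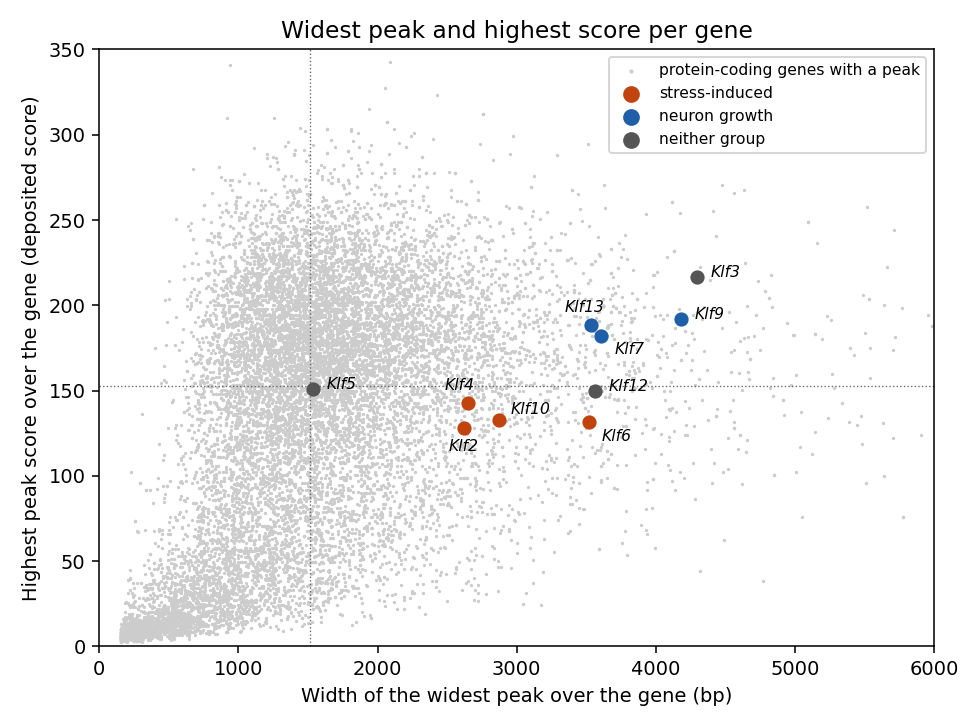
Width in bp of the widest peak (horizontal) against the highest deposited score (vertical) for 14665 protein-coding genes with a peak, in grey, with the 10 Kruppel-like factor genes in colour; 33 genes lie outside the axes and dotted lines mark the medians of all genes (1515 bp and 152.6). The 4 stress-induced genes lie below the median score and the 3 neuron-growth genes above it, while all 7 lie to the right of the median width.

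The groups, like the members, were chosen with earlier results of these data known, so their comparison is a description and not a test. Between the groups as set here, the highest scores did not overlap. With Klf6, or Klf4 and Klf6, counted as neuron-growth genes, or Klf9 as stress-induced, they did overlap. The stress-induced genes had a median of 132.2 and the neuron-growth genes one of 188.2, a difference of -55.9, with the median of all genes with a peak (152.6) in between. Of the protein-coding genes with a peak, 55.0 to 60.7% scored higher than a stress-induced member, against 25.9 to 31.9% for a neuron-growth member. All 3 neuron-growth genes and 1 of the 4 stress-induced genes (Klf4) had a peak among the top-scored 25%, as did 7 of all 10 members and 37.3% of protein-coding genes. Among protein-coding genes with any peak, 8161 of 14665 had one of the top-scored 25%. That 25% began at a score of 140.8, just under Klf4 at 142.5 and above Klf10 at 132.7.

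Widths differed in the same direction. The widest peaks had a median of 2760.5 bp in the stress-induced and 3605 bp in the neuron-growth genes, a difference of -844.5 bp. The widest stress-induced peak (Klf6, 3523 bp) was only just below the narrowest neuron-growth one (Klf13, 3537 bp), and the groups overlapped with Klf4 and Klf6 counted as neuron-growth genes or Klf9 as stress-induced. Both medians were above that of all genes with a peak, 1515 bp. With peaks closer than 1 kb merged, the medians were 4582 and 4804 bp and the groups overlapped, since Klf6 then had 5671 bp against 4729 bp for Klf7.

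The number of peaks had a median of 3 in the stress-induced and 5 in the neuron-growth genes, with overlapping ranges of 2 to 5 and 2 to 6. Peaks covered a median of 3422.5 bp and 5299 bp, with ranges of 2961 to 5498 bp and 4466 to 5996 bp. Both differences turned round, to 0.5 peaks and 92.5 bp, when only peaks within 1 kb of an end of the model were taken. Covered length then counted only bases within that distance, so the parts of wide peaks beyond it were left out. Its ranges were then 1919 to 2483 bp in the stress-induced and 1100 to 1941 bp in the neuron-growth genes. The groups also differed in gene length: the stress-induced gene models were 2593 to 9248 bp long and the neuron-growth models 26904 to 92898 bp. Number of peaks and covered length were counted over the model with its margins, so a longer model leaves more room for both. Whether gene length bears on the width, score, number or covered length of the peaks was not tested.

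**Figure D3:**
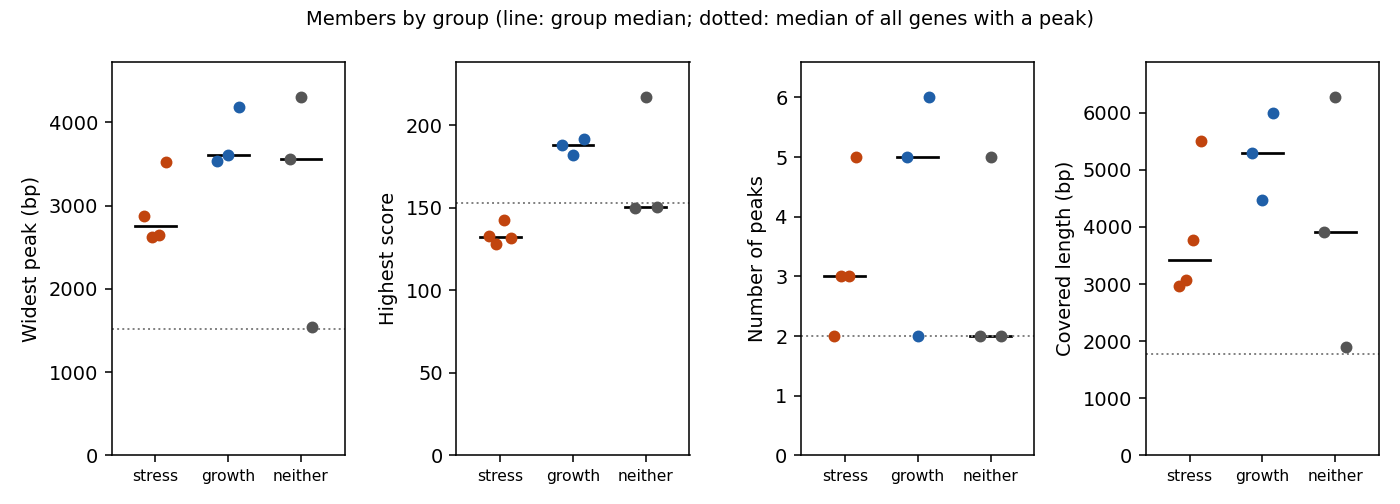
Widest peak in bp, highest deposited score, number of peaks and covered length in bp for each of the 10 genes, by group; black lines are group medians and dotted lines the medians of all protein-coding genes with a peak. The stress and growth groups are apart in highest score and overlap in number of peaks and covered length. In widest peak they are only just apart, with Klf6 at 3523 bp and Klf13 at 3537 bp.

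The 3 genes in neither group held both the widest and the narrowest main peak of the 10, and all 3 scored above the stress-induced genes. Klf3, a repressor that works through the CtBP corepressors, had the widest and highest-scored peak of the 10, with 4299 bp and 216.8 (chromosome 5, 64802313 to 64806611). It ranked 163 in width among protein-coding genes. The same peak holds an end of Gm38457, a protein-coding gene on the opposite strand, which therefore had the same values. In width the next gene below was Pappa, at 4282 bp. Ubqln1 had the same score of 216.8 from another peak. Further inside Klf3 lay 4 peaks, 3 of them 211 to 337 bp wide with scores under 10 and the last of 1388 bp scoring 20.05.

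Klf12, another CtBP-dependent repressor, has a gene model of 419711 bp, of which peaks covered only 0.927% with margins included. Its wide peak, 3564 bp scoring 150.0, lay at the upper end of the model (chromosome 14, 100283305 to 100286868), where the long noncoding RNA gene Gm41231 also has an end. The RefSeq start listed for Klf12, at 100149796, had no peak within 2 kb. A second peak of 346 bp scoring 6.16 lay inside the gene. Klf5, a factor of proliferating crypt epithelium, had the narrowest main peak, 1536 bp scoring 150.7. This peak lay over the lower end of the model (chromosome 14, 99298607 to 99300142). Another of 360 bp scoring 36.9 preceded it across a gap of 111 bp. The widest peak and highest score of Klf5 were close to the medians of all genes with a peak.

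A listed start site and promoter were available for 8 of the 10 genes. Klf5 and Klf10 had none in the table. At 6 of these 8 genes the start lay inside a peak, and at 7 the 2 kb after the start held more marked bases than the 2 kb before it. All 2000 bp after the start were covered at Klf2, Klf3, Klf4, Klf7, Klf9 and Klf13, and 1976 bp at Klf6. Before the start, coverage ranged from 452 bp at Klf2 and 672 bp at Klf6 to 1610 bp at Klf4. Over 13533 listed starts of protein-coding genes with a peak within 2 kb, the medians were 566 bp before and 1050 bp after the start, and 77.9% had more after it. Of these starts 85.4% lay inside a peak. Klf12, with no peak within 2 kb of its listed start, falls outside this set. Of the other 7 members with a listed start, 6 had it inside a peak, close to that share.

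At 6 of the 8 genes the marked domain was split by a short gap just before the start, with a peak on both sides. A split was counted where a gap of at most 500 bp between neighbouring peaks had a base in the 500 bp before a listed start. This definition was written after the gaps had been seen. It held for Klf2, Klf4, Klf6, Klf7, Klf9 and Klf13 but not for Klf3 or Klf12. Of protein-coding genes with a peak within 2 kb of a listed start, 23.2% had such a split, and of those with a listed start and a peak of at least 2500 bp, 12.2%. Klf12 falls outside the first of these sets, while all 8 genes fall in the second.

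The gaps measured 76 bp at Klf2, 82 bp at Klf4, 301 bp at Klf6, 263 bp at Klf7, 66 bp at Klf9 and 60 bp at Klf13. Klf4 had the gap nearest to the start among those that end before it, from 173 to 92 bp upstream. At Klf13 it ran from 199 to 140 bp, at Klf2 from 266 to 191 bp, at Klf7 from 457 to 195 bp and at Klf9 from 508 to 443 bp upstream. The start of Klf6 itself lay in the gap, which began 277 bp before it and ended 23 bp after it. Of the 6 split genes, 3 were stress-induced and 3 neuron-growth genes. Over all 2921 such gaps the median length was 121 bp and the median distance of the near edge from the start 34 bp. The list gives no signal inside a gap, so the level of H3K4me3 there is unknown.

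The sequences before 4 of these starts, 2 from each group, show what the gaps contain. Each is the 250 bases before the RefSeq start on GRCm38.p6, read along the gene from 5′ to 3′, with the bases that lie in no peak in capitals. They come from chr4:55532476-55532725 (Klf4, minus strand), chr13:5861239-5861488 (Klf6, plus strand), chr7:63938916-63939165 (Klf13, minus strand) and chr1:64121390-64121639 (Klf7, minus strand).
Klf4: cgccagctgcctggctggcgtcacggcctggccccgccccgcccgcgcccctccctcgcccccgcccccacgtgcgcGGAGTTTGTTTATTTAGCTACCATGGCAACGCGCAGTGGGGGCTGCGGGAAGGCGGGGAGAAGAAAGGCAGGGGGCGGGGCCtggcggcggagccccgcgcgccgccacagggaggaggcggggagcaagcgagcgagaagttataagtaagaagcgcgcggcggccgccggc
Klf6: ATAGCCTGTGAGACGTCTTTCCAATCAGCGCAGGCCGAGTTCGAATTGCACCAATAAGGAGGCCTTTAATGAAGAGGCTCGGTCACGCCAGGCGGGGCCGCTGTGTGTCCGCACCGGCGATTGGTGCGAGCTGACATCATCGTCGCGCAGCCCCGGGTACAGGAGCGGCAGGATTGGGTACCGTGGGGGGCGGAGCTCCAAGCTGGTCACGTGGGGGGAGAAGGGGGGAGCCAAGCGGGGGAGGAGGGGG
Klf13: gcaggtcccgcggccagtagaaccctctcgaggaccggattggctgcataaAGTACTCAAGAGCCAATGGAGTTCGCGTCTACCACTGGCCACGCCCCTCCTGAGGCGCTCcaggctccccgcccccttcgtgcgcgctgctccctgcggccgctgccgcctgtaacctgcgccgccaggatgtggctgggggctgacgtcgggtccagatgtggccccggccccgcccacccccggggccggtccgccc
Klf7: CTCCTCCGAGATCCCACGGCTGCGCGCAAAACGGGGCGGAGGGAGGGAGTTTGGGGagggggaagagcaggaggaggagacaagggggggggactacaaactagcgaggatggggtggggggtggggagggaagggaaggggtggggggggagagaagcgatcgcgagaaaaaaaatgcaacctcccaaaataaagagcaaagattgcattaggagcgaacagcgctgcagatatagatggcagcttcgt

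Capitals number 82 at Klf4, 250 at Klf6, 60 at Klf13 and 56 at Klf7, where the rest of the gap lies further upstream. Motifs were searched on both strands in the 250 bases before and 50 after each start. The GC box GGGCGG, a site bound by Sp and Kruppel-like factors, was present at 6 of the 8 genes and in 46.2% of the 21263 promoters listed for protein-coding genes. It lay wholly inside the gap at Klf2, Klf4, Klf6 and Klf7, with 1 match each. At Klf6 the gap takes up all 250 bases before the start, so any match there had to fall in it. Klf3, which had no gap, held 6 matches in its promoter. The CACCC motif was present at 6 of 8 genes, against 59.5% of promoters, with 12 matches in all. The gap reached into the searched bases at 5 genes (Klf2, Klf4, Klf6, Klf7 and Klf13) but not at Klf9, and at these 5 none of the 5 CACCC matches lay in it. Of the 11 GC box matches at these 5 genes, 4 lay wholly in the gap. At Klf3 and Klf13 a GC box and a CACCC match overlap by 1 base.

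CCAAT, bound by the factor NF-Y, was found at Klf6, Klf9 and Klf13, 3 of 8 genes against 38.2% of promoters. Klf6 held 4 matches, all before the start, where its gap leaves no base in a peak. Klf13 had 1 of 2 in its gap. TGACG, the core of the cyclic AMP response element, was found at 6 of 8 genes against 23.6% of promoters. Of the 5 genes with a gap in the searched bases 3 held it, within the gap at Klf2 and outside it at Klf4 and Klf13. At Klf3 it lay after the start. Klf9 alone held the AP-1 motif TGANTCA (6.99% of promoters), whose match there overlaps the CACCC match. Klf2 alone held a MEF2 motif (2.74% of promoters), 118 bp before the start and inside the peak. TATAAA was found only at Klf12 (12.6% of promoters), and the CArG box at none of the 8 (1.52% of promoters).

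The promoters were mostly rich in CpG dinucleotides. The ratio of observed to expected CpG was above the median of all listed promoters (0.567) at 7 of the 8 genes. It was 0.974 at Klf4, 0.962 at Klf9, 0.889 at Klf2, 0.844 at Klf6, 0.837 at Klf13, 0.742 at Klf7 and 0.659 at Klf3. Klf12 had 0.426 at its listed start, the one without a peak. Stress-induced and neuron-growth genes overlapped in this ratio.

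Among the other 7 Kruppel-like genes, 6 had a peak, and their widest peaks were mostly narrower. For genes outside the 10, the width given is that of the widest peak and the score the highest at the gene; among those given both values, these belonged to different peaks at Klf8, Nr4a1, Sox11 and Dpysl2. Klf16 had 2657 bp scoring 164.6 and Klf15 2477 bp with 143.0. Klf8 (1591 bp, 54.4), Klf11 (1473 bp, 257.4) and the erythroid factor Klf1 (1258 bp, 95.5) followed. Klf14 had a single peak of 153 bp scoring 4.32, and Klf17 had none. Klf11, the relative of Klf10, thus had the highest score of the whole family, on its widest peak, which was narrower than the median of all genes with a peak.

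Of the 9 related Sp genes, whose proteins carry the same kind of zinc fingers, 8 had a peak. Sp3 stood apart in width with 3632 bp scoring 256.8. Sp7, Sp4, Sp5, Sp1, Sp2, Sp6 and Sp8 had widest peaks from 1714 down to 479 bp, and Sp2 the highest score, 291.9. Sp9 had none. The median widest peak was 1532 bp in the other Kruppel-like genes and 1308 bp in the Sp genes, each over the genes with a peak, beside 3530 bp in the 10 members, which were chosen with these values known.

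**Figure D4:**
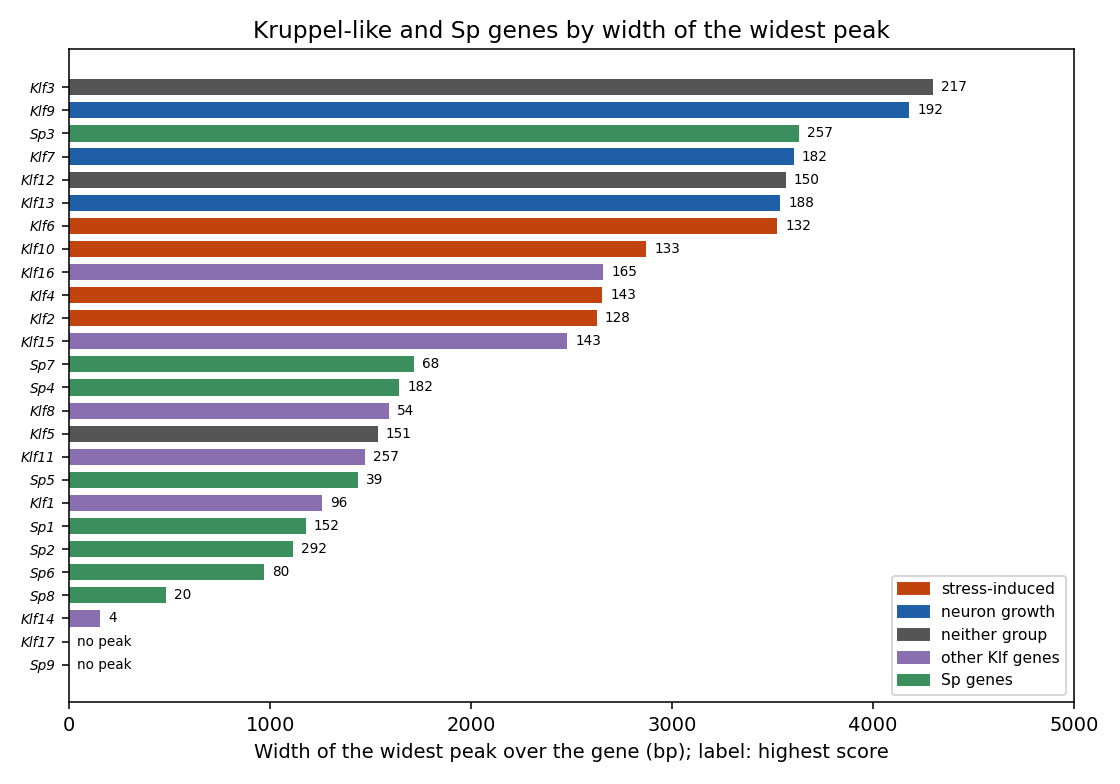
Width in bp of the widest peak at each of 17 Kruppel-like and 9 Sp genes, with the highest deposited score beside each bar. The 3 neuron-growth genes and Klf3, Klf12 and Sp3 have peaks above 3530 bp, the median of the 10 members. The stress-induced Klf6 is just below it at 3523 bp, and Klf17 and Sp9 have no peak.

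Of 17 partners and regulators of Kruppel-like factors, all had a peak, beside 67.0% of all protein-coding genes. A peak among the highest-scored 25% was present at 16, the exception being Mef2c, beside 37.3% of protein-coding genes. Of the protein-coding genes with a peak, 8161 of 14665 had one. This list holds corepressors (Ctbp1, Ctbp2, Sin3a, Sin3b), histone-modifying enzymes, the ubiquitin ligases Wwp1 and Fbxw7 that mark Klf2 and Klf5 for breakdown, and the MAPK7 and MEF2 route to Klf2. Its median widest peak was 2377 bp and its median highest score 180.5. Ctbp2 (3713 bp, 198.4), Mef2d (3483 bp, 165.8), Mef2c (3203 bp, 96.9) and Fbxw7 (2966 bp, 180.5) had the widest peaks.

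The early response genes of stress and tissue dissociation were also all marked, 20 of 20, beside 67.0% of protein-coding genes. Their median widest peak was 2876.5 bp, close to the 2760.5 bp of the stress-induced Kruppel-like genes, and their median highest score was 151.2. Nr4a1 (5034 bp, 117.1), Atf3 (4084 bp, 106.2), Egr1 (3866 bp, 180.5) and Ier3 (3581 bp, 149.8) were widest, and Hspa1a (577 bp, 31.9) was narrowest. In this list 12 genes had a peak among the highest-scored 25%, beside 37.3% of protein-coding genes. Among protein-coding genes with a peak, as all 20 are, 8161 of 14665 had one. As at the stress-induced members, the gene models were short, with a median of 3034.5 bp.

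Genes of axon growth, including described targets of Klf7 and Klf4, had peaks that were on median narrower and lower-scored than those of the neuron-growth Kruppel-like genes. Of 14 such genes 13 had a peak, beside 67.0% of protein-coding genes. Their median widest peak was 2136 bp and their median highest score 66.2. Basp1 (2820 bp, 58.6), Ncam1 (2772 bp, 174.6), Sox11 (2761 bp, 84.5) and Dpysl2 (2730 bp, 155.3) had the widest. Cdkn1a, a cell cycle inhibitor described as a target of Klf4, had 2136 bp scoring 121.9. Sprr1a, a gene of regenerating axons, had no peak.

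Several of the 10 genes are also active in other cells of the gut, so marker genes of such cells were counted in the same way. The share of all protein-coding genes with a peak, for comparison, was 67.0%. The pan-neuronal and enteric neuron markers all had a peak (7 of 7, widest peaks 379 to 6581 bp, highest scores 11.6 to 104.8). Of 4 nitrergic markers 3 had one (183 to 4843 bp, 13.0 to 146.8). Nos1, the gene the cells were sorted for, had only 1 peak, of 183 bp, and Vip none. Glial markers were all marked (5 of 5, 912 to 6775 bp, 26.9 to 102.2), and the glial factors Sox10 (6775 bp) and Foxd3 (5004 bp) had wider peaks than any of the 10 Kruppel-like genes. Smooth muscle (5 of 5, 322 to 1503 bp, 9.41 to 32.6) and interstitial or fibroblast markers (5 of 5, 295 to 1877 bp, 9.48 to 54.7) were all marked too. Epithelial markers were marked in 3 of 6 genes (513 to 981 bp, 19.8 to 32.9), with no peak at Vil1, Cdx2 and Krt20. Endothelial ones were marked in 3 of 5 (232 to 1501 bp, 2.64 to 91.5), with none at Cdh5 and Tek. Of 5 leukocyte markers 3 had a peak. Ptprc (7.18) and Csf1r (9.32) had low scores, the 2828 bp peak at Cd79a (164.5) lay mostly outside that gene, with 439 bp in its window, and Cd3e and Itgam had none. What part other cells had in the peaks of Klf2, Klf4 and Klf5 was not tested.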

How the data were processed

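The input was 1 deposited list of H3K4me3 peaks from 1 library, with a position and a score for each peak. Per the file headers, the authors called peaks with MACS2 on a paired-end library. The submitters' processing notes also name BWA, Picard and the build mm10, without roles or versions. The threshold, the handling of duplicates and the scale of the deposited score were not given in the sources used here. Read depth is unknown. The input library was not analysed here.

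Peaks were joined to RefSeq gene models of GRCm38.p6 (the mm10 assembly) on 21 chromosomes with Python 3.11.15 and pandas 2.3.3, using 1-based coordinates. Covered length counts the bases of peaks inside the gene with its margins. Start sites, strands and promoters came from RefSeq sequences of 250 bases before to 50 after a start. Protein sequences were not used here. The routines for peak width, peak number and gap length were tested on simulated data. Those for covered length, merging and the other windows were not. The members, groups and comparison lists were chosen with earlier results of these data known. All members, other family genes, genes with an end in a member's peak and up to 4 genes per further list, by width, are named; Hspa1a, Cdkn1a, Sprr1a, Wwp1 and the corepressors named without values are outside this rule. An item of the axon growth list is not reported here. Alternatives were other windows, gene ends only, a stricter overlap, score and width limits, merged peaks and other groupings.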

Additional observations from a re-analysis of the deposited data

How the results depend on the processing

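All 10 genes kept a peak under 8 of the 9 alternatives, and 7 did in the top-scored 25%. The difference in highest score, stress-induced minus neuron-growth, lay between -57.8 and -52.8 with each gene left out in turn. It stayed within 1.5 times its value under each alternative, though the groups overlapped in score under all 3 other groupings. The score limits, the width limit and merging left each gene's highest score unchanged wherever a peak remained. These settings therefore tell little about the stability of that difference. In the top-scored 25%, Klf4 was the only stress-induced gene left. The difference in widest peak lay between -1132 and -735 bp with a gene left out and was -222 bp with peaks closer than 1 kb merged. The difference in number of peaks lay between -2.5 and -0.5 with a gene left out. It was -0.5 in the top-scored 50% of peaks and with Klf9 counted as stress-induced, -1 with peaks at least 300 bp wide, 0 after merging and 0.5 with ends of the model only. Covered length differed by -2225 to -1460 bp with a gene left out, by -1111.5 bp with Klf9 counted as stress-induced, by -4338 bp in the highest-scored 25% and by 92.5 bp with ends only. In the highest-scored 25%, Klf2, Klf6 and Klf10 had no peak left and counted as 0 bp. The stress-induced median of covered length was therefore 0 bp there. With ends only, covered length counted just the bases within 1 kb of an end. The cause of the other shifts was not tested. Of single genes, the widest peak moved by over 1.5 times only with merging, at Klf2 (4441 bp), Klf4 (4723 bp), Klf6 (5671 bp) and Klf9 (6988 bp). Under alternatives chosen after seeing the data, a split before the start was found at 5 genes (21.2% of protein-coding genes with a peak near a start) within 250 bp of it, at 4 (20.9%) with gaps of at most 250 bp and at 5 (16.4%) in the top-scored 50%. Read depth is unknown, and how it bears on the peaks was not tested.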

Other observations

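Within 100 kb beyond the 1 kb margins, 9 of the 10 genes had at least 1 further peak, as did 79.1% of protein-coding genes. In all 27 such peaks were found, with a median of 1.5 a gene, against a median of 4 over all protein-coding genes. Klf7 had none on either side. Klf2 and Klf10 had 7 each. Those around Klf2 included one of 2056 bp (chromosome 8, 72420274 to 72422329), and ends of Eps15l1 and Fam32a lay in peaks there. The highest score among the 7 around Klf2 was 223.3. Around Klf10 the widest measured 1504 bp with no score above 24.2. The widest near Klf9 spanned 1773 bp (chromosome 19, 23135100 to 23136872), before the gene, and the highest score there was 58.7. Klf4 had 2 peaks, up to 592 bp and a score of 51.3, and both lay beyond its far end. Klf6 had 3 of at most 309 bp. Klf3, Klf5, Klf12 and Klf13 had 1 each, of 231 to 509 bp. Which gene any of these peaks belongs to was not tested.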
